A study of Homo sapiens with 6 samples.

Results

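The LIF and STAT3 pathway was followed here at 9 genes in human naive embryonic stem (nES) cells: the ligand LIF, the receptor chains LIFR and IL6ST, the kinase JAK1, the transcription factor STAT3, the inhibitors SOCS3 and SOCS2, and the STAT3 targets PIM1 and BCL3. Their members were all peaks of an ATAC-seq counts table that overlapped the body of a gene (GENCODE 44, hg38) extended by 50 kb on either side, which gave 239 of 171517 peaks. JAK1 had 44 peaks, SOCS3 32, LIF 30, STAT3 28, BCL3 28, IL6ST 24, PIM1 24, SOCS2 18 and LIFR 11. ATAC-seq uses a transposase to cut open chromatin, so that the count of reads in a peak rises with its accessibility.

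All 6 libraries came from H9, an established line of human embryonic stem cells, so that every value rests on 1 cell line. The cells had been kept on irradiated DR4 mouse fibroblast feeders, were depleted of them, and were plated on laminin in tt2iLGö medium at 5% O2. This medium held LIF (10 ng/ml), the MEK inhibitor PD0325901 (1 μM), the GSK3 inhibitor CHIR99021 (0.3 μM) and the PKC inhibitor Gö 6983 (2 μM) in both groups, and the ROCK inhibitor Y27632 was present for 24 h after passaging, so the pathway received its ligand in every library. No group without LIF was compared. In the control group (n = 3) the medium held 0 mM dm-αKG, which the sample labels describe as DMSO, and in the treated group (n = 3) it held 4 mM dm-αKG for 24 h. dm-αKG is a membrane-permeable ester of α-ketoglutarate, a metabolite of the TCA cycle and a cofactor of histone and DNA demethylases. Per the labels, 48 h in medium without dm-αKG came first, which the published methods do not mention.

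LIF binds LIFR, which pairs with IL6ST (gp130), and the receptor-bound kinase JAK1 then phosphorylates STAT3, which enters the nucleus and binds DNA. SOCS proteins are made in response and act as feedback inhibitors of the receptors and kinases. In mouse embryonic stem cells LIF and STAT3 sustain self-renewal, and media for human naive cells contain LIF for the same purpose.

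Both thresholds of the main test were passed by 7 peaks, and the sequences of those at LIF, SOCS3 and SOCS2 are shown first, so that these regions can be read beside their counts below. The thresholds were an adjusted p below 0.01 (edgeR quasi-likelihood test, Benjamini-Hochberg over all 171517 peaks) and an absolute log2 fold change above 1. All are read on the + strand of hg38, and distances are counted from the start of the gene record, with negative values upstream.
LIF, 22.2 kb downstream, chr22:30224500-30224699: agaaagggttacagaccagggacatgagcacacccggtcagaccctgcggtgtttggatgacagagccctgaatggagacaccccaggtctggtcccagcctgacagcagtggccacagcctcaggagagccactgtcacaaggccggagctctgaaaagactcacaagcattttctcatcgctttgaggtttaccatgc
SOCS3, 34.3 kb upstream, chr17:78394294-78394493: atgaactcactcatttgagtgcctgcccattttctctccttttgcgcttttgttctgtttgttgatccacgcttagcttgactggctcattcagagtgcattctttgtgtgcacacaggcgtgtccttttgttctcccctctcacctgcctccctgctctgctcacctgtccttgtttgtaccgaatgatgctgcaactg
SOCS3, coding exon, chr17:78358840-78359039: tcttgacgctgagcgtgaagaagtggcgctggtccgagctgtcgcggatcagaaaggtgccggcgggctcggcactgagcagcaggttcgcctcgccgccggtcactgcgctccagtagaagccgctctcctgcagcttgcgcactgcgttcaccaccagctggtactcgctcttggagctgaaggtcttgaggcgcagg
SOCS2, 18.0 kb from the start and downstream, chr12:93587705-93587904: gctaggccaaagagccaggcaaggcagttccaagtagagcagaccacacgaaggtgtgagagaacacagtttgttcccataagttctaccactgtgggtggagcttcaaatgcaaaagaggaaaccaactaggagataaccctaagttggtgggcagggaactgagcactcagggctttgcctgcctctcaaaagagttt
SOCS2, 46.9 kb from the start and downstream, chr12:93616575-93616774: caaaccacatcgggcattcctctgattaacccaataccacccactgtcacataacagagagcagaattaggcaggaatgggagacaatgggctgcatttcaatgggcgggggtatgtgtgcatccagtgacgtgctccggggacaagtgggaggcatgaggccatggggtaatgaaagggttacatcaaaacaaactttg

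The central 200 bp of each member peak were scanned, in both orientations, for 4 words, and none of the 7 peaks past both thresholds held any of them. The words were TTCCNGGAA for STAT3, TTCNNNGAA as the core shared by STAT factors (which contains every TTCCNGGAA), TGANTCA for AP-1 and ATGCAAAT for OCT factors. Across the 239 peaks, TTCCNGGAA occurred in 2 (0.837%, against 0.794% of all peaks), TTCNNNGAA in 14 (5.86% against 4.66%), TGANTCA in 23 (9.62% against 6.33%) and ATGCAAAT in 3 (1.26% against 2.28%). Both peaks with TTCCNGGAA are shown because they carry the full STAT3 word, in capitals. Of the SOCS2 peak only the 30 bases around its tandem copy are given.
SOCS2 promoter, chr12:93570891-93570920: gccgaTTCCTGGAAagTTCCTGGAAagccg
SOCS3, 51.7 kb from the start and downstream, chr17:78308232-78308445: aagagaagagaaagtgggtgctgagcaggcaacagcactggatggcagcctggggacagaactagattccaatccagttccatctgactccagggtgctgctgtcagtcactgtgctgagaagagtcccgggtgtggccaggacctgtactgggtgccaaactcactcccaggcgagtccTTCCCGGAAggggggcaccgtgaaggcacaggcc

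Neither of these peaks passed the test. The SOCS2 peak (chr12:93570858-93571083) had normalized counts of 248, 282 and 256 in control and 241, 228 and 256 in dm-αKG, with a log2 fold change of -0.12 (SE 0.10, edgeR adjusted p = 0.461) and overlapping groups. At the SOCS3 peak the counts were 57.2, 44.4 and 48.6 in control and 36.6, 52.6 and 25.5 in dm-αKG, with a log2 fold change of -0.38 (SE 0.25, edgeR adjusted p = 0.302), and the groups overlapped as well. Normalized counts here are counts divided by the TMM-scaled library size and multiplied by the mean size. RefSeq promoters, from 250 bases before to 50 after a gene start (GRCh38.p14), were matched for 7 of the 9 genes, and LIF and SOCS2 had none. TTCCNGGAA was in 0 of the 12 promoters matched and in 1.15% of all 35116. TTCNNNGAA, in 7.66% of all, was found at LIFR, the receptor chain that binds LIF, once at each of 2 starts. Each is shown on the - strand, along which LIFR is read, with the word in capitals.
LIFR, 165 bases before a start, chr5:38595551-38595580: ccattactagTTCCTTGAAccacaatccaa
LIFR, 182 bases before another start, chr5:38557630-38557659: gctttggagtTTCATCGAAaggtctttaaa

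Total counts in peaks lay between 13025674 and 26828622 per library, and TMM factors between 0.991 and 1.01. Correlations between libraries were 0.939 to 0.965 within a treatment and 0.907 to 0.926 between treatments, so no library stood apart from its own group. Of 7 naive markers, 6 had a promoter peak and DPPA3 had none. The 4 general pluripotency genes POU5F1, NANOG, SOX2 and SALL4 all had one, but so did all 5 trophectoderm and all 5 primitive endoderm markers, so an accessible promoter did not tell these cell types apart. The promoter peak fell at KLF17 (log2 fold change -0.39, edgeR adjusted p = 0.00100) and rose at SUSD2 (0.33, edgeR adjusted p = 0.000108), both naive markers. Among 5 primed markers DUSP6, a target of the ERK pathway, was lower (-0.30, edgeR adjusted p = 0.00928). ZIC2, SFRP2, CD24 and OTX2, the other primed markers, did not pass (-0.42 to 0.21). The other 4 naive markers with a promoter peak and all general pluripotency, trophectoderm and primitive endoderm markers did not pass either. Of the promoter peaks of all protein-coding genes, 2.63% were lower and 3.74% higher at an adjusted p below 0.01. Whether these shifts have a part in the results below was not tested. In a bulk library, fewer cells with a site open and less opening per cell cannot be told apart.

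Few of the 239 peaks changed, in shares near those of the whole table. Both thresholds were passed by 5 less accessible peaks (2.09%) and 2 more accessible ones (0.837%), where 1.96% and 0.782% of all peaks were called less and more accessible. With the adjusted p alone, 13 peaks were lower (5.44%) and 10 higher (4.18%), against 6.54% and 3.34% of all peaks. Total-count or upper-quartile scaling gave 12 lower and 14 higher, DESeq2 gave 11 and 6, and the main test without dm-αKG 1 gave 10 and 5. Shares of all peaks under these settings are not given here. The groups did not overlap in any of the 23 peaks of the main test, which lay at 7 genes. The share of all peaks past the adjusted p alone in which the groups stood apart is not given here. At both thresholds, the groups stood apart in all 7 called members. Across the table they did so in 99.1% of peaks called less and 98.7% of those called more accessible. Among all 239 members, called or not, they stood apart in 75 (31.4%), against 32.4% of all peaks. IL6ST and LIFR had none of the 23 peaks past the adjusted p. The median log2 fold change was 0.063 over the 239 peaks and 0.011 over all peaks. With total counts these medians were 0.08 and 0.027, and with upper-quartile scaling 0.079 and 0.026.

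At promoters and away from them, the shares of lower and higher peaks were also close to those of all peaks. All 13 lower peaks were more than 1 kb from any transcript start of a protein-coding gene, the only starts used. There, 172 members lay (7.56% lower and 2.91% higher, against 8.42% and 2.86% of all such peaks). Of the 67 members within 1 kb of a start, 0 were lower and 5 were higher (7.46%), against 2.08% and 4.47% of all such peaks. In 3 of those 5 the start belonged to a neighbouring gene, STAT5A, CAVIN1 or BCAM. The median log2 fold change was 0.139 for members at promoters (0.100 for all peaks there) and -0.028 for the others (-0.051). GC content differed too, with a median of 69.5% at the members' promoter peaks and 54.0% away from them. The part of GC content in these shares was not tested.

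**Figure D1:**
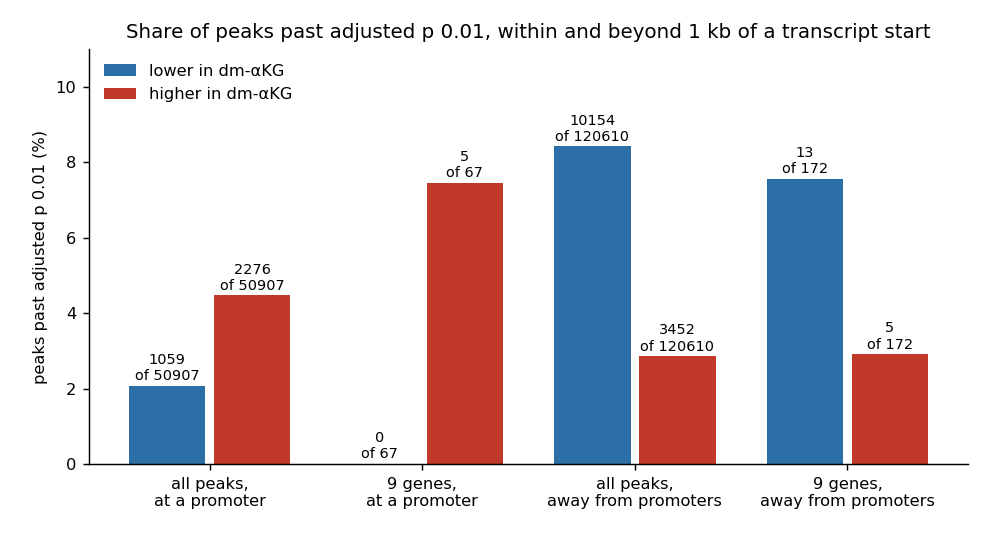
Percentage of peaks with an adjusted p below 0.01 that were lower (blue) or higher (red) in dm-αKG, for all peaks and for those of the 9 genes. Peaks are split into those within 1 kb of a transcript start of a protein-coding gene and those farther away. The numbers above the bars are counts of peaks. The 9 genes had 0 of 67 lower peaks at promoters and 13 of 172 elsewhere.

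**Figure D2:**
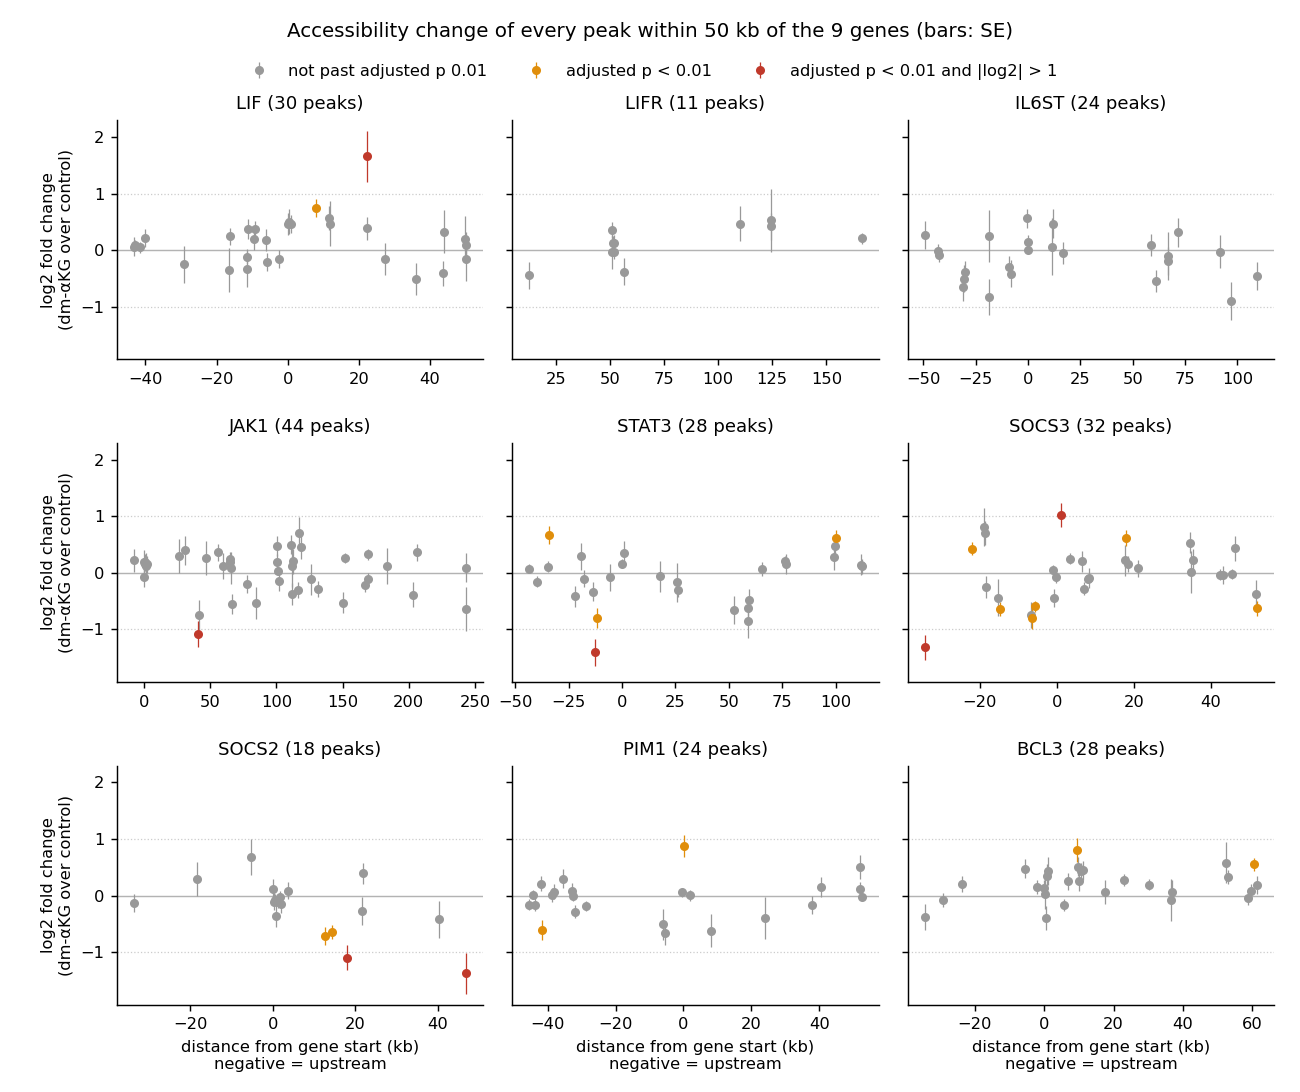
Log2 fold change (dm-αKG over control, with SE) of each of the 239 peaks against its distance from the start of the gene record in kb, with 1 panel per gene. Grey points did not pass the adjusted p, orange points passed it, and red points also passed the fold threshold (dotted lines). The red points are the 7 peaks past both thresholds.

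The deposited peak lists, 1 per treatment, were made from the same 6 libraries as the counts, so they are no second source for these calls. Of the 5 less accessible peaks 4 came only from the control list, and both more accessible peaks came only from the dm-αKG list. Across all peaks, 2170 of the 3365 less accessible peaks were from the control list only, and 1014 of the 1342 more accessible ones from the dm-αKG list only. Of the 239 members, 183 (76.6%) stood in both lists, against 71.4% of all peaks.

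The promoter peak of each gene, taken as that with the highest mean count within 1 kb of any of its transcript starts, did not pass the adjusted p at any of the 9 genes. Of the promoter peaks of 16275 protein-coding genes, 2.63% were lower and 3.74% higher at that threshold. At an unadjusted p below 0.05, 3 of the 9 passed, at LIF, BCL3 and STAT3, with higher values in dm-αKG, against 26.2% of the promoter peaks of all genes in either direction. Per 200 bp, the mean level in control was 553 normalized counts at IL6ST, 530 at STAT3, 463 at JAK1, 352 at SOCS2, 336 at PIM1, 300 at SOCS3, 176 at LIFR, 144 at BCL3 and 92.4 at LIF. The control ranges of neighbours in this order overlapped between IL6ST and STAT3, SOCS2 and PIM1, PIM1 and SOCS3, and LIFR and BCL3, and stood apart between STAT3 and JAK1, JAK1 and SOCS2, SOCS3 and LIFR, and BCL3 and LIF.

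**Figure D3:**
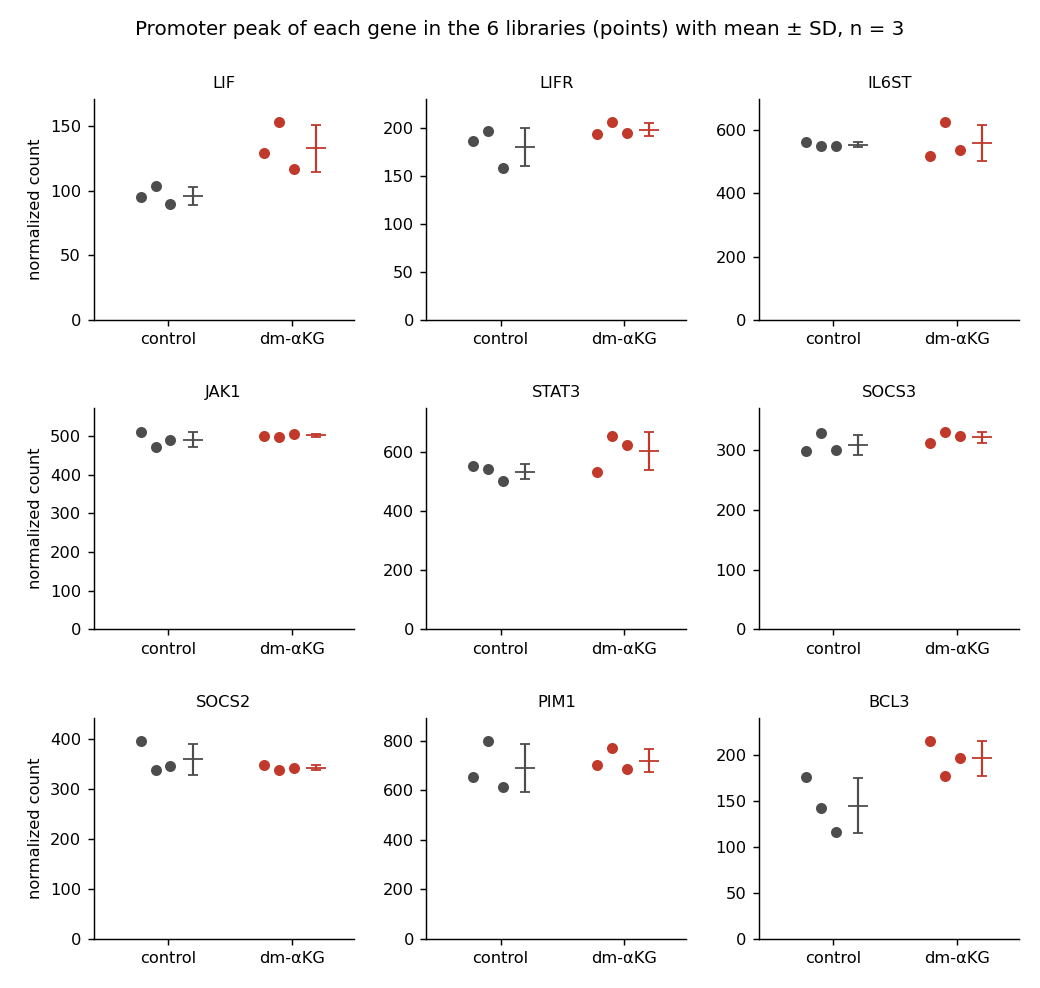
Normalized count of the promoter peak of each gene in the 3 control (grey) and 3 dm-αKG (red) libraries, with mean and SD beside the points. The groups stand apart at LIF and BCL3 and overlap at the other 7 genes.

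LIF, the ligand, had 3 promoter peaks, with log2 fold changes between 0.46 and 0.50. The strongest (chr22:30245739-30245946) had normalized counts of 94.8, 104 and 89.9 in control and 129, 153 and 117 in dm-αKG. The groups did not overlap, but the log2 fold change of 0.46 (SE 0.16) had an edgeR adjusted p of 0.0283. Past the end of the gene, a peak 8.0 kb from the start (chr22:30238658-30238864) rose from 77.8, 94.5 and 108 to 184, 135 and 138, by 0.74 on the log2 scale (SE 0.16, edgeR adjusted p = 0.000186). The peak at 22.2 kb was called more accessible, with counts of 5.37, 5.75 and 9.72 in control and 25.1, 12.8 and 25.5 in dm-αKG and a log2 fold change of 1.66 (SE 0.45, edgeR adjusted p = 0.00476). Its mean count was among the lowest in the table, at percentile 2.99, and it lost its call without control 1, control 2, dm-αKG 1 or dm-αKG 3 (edgeR adjusted p 0.0152 to 0.0653) and with all libraries thinned to 1 depth (0.0276). The strongest peak away from promoters, 11.3 kb upstream and on the side of OSM, a neighbouring cytokine gene of the same family, had overlapping groups and a log2 fold change of -0.12 (SE 0.13, edgeR adjusted p = 0.579).

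LIFR carried 11 peaks and none passed, with log2 fold changes from -0.45 to 0.53. Of these, 2 (18.2%) had an unadjusted p below 0.05, against 30.7% of all peaks. The start of the gene record had no peak within 1 kb, and its promoter peaks lay 12.7 kb and 50.9 to 51.9 kb inside the gene, at the starts of shorter transcripts. The strongest (chr5:38556768-38556972) gave 186, 197 and 158 normalized counts in control and 194, 205 and 195 in dm-αKG, and the groups overlapped (log2 fold change 0.12, SE 0.12, edgeR adjusted p = 0.529). The peak 51.1 kb into the gene gave 115, 138 and 129 against 164, 151 and 174, the smallest adjusted p of this gene (0.062 by edgeR, log2 fold change 0.35, SE 0.14). The peak at 12.7 kb, which contains the first LIFR sequence shown above, had 50.1, 53.4 and 63.2 against 42.3, 26.9 and 52.4 (log2 fold change -0.45, SE 0.24, edgeR adjusted p = 0.194). The strongest peak away from promoters, 166.4 kb from the start and past the gene's end, had overlapping groups and a log2 fold change of 0.21 (SE 0.096, edgeR adjusted p = 0.119).

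IL6ST, which encodes gp130, the signal-transducing chain shared by the IL-6 family, had 24 peaks and 0 past the adjusted p, with 7 (29.2%) at an unadjusted p below 0.05, near the 30.7% of all peaks. Its promoter peak (chr5:55995001-55995200) was the most accessible of the 9 per 200 bp. It gave 562, 549 and 548 in control and 516, 624 and 536 in dm-αKG, so that the control range lay inside that of dm-αKG (log2 fold change 0.007, SE 0.077, edgeR adjusted p = 0.963). A weaker promoter peak 0.4 kb upstream had 73.3, 106 and 71.7 against 138, 136 and 94.3 (log2 fold change 0.56, SE 0.17, edgeR adjusted p = 0.0118). At the strongest distal peak, 42.6 kb upstream, the log2 fold change was -0.095 (SE 0.11, edgeR adjusted p = 0.603).

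JAK1, the kinase bound to gp130, had 44 peaks, the most of the 9 genes, and 1 passed (2.27%, against 9.88% of all peaks). Its promoter peak (chr1:64966394-64966605), at an internal start 101.3 kb into the gene, hardly varied among libraries, with 511, 471 and 491 in control and 501, 498 and 506 in dm-αKG (log2 fold change 0.031, SE 0.078, edgeR adjusted p = 0.829). The intronic peak at 41.1 kb was called less accessible. It held 68.9, 69.1 and 86.2 in control and 30.8, 33.4 and 43.4 in dm-αKG, all 3 below the lowest control (log2 fold change -1.08, SE 0.23, edgeR adjusted p = 0.000216). The change was under 2-fold without control 3 (-0.98) or dm-αKG 1 (-0.95). The adjacent peak at 41.4 kb had a log2 fold change of -0.75 with an edgeR adjusted p of 0.0378. The strongest intronic peak, 151.7 kb into the gene, had a log2 fold change of 0.27 (SE 0.090, edgeR adjusted p = 0.0262) with overlapping groups.

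STAT3, which carries the signal to DNA, had 28 peaks, 2 lower and 2 higher (7.14% each, against 6.54% and 3.34% of all peaks). It did not pass the test at its promoter (chr17:42388468-42388668), where counts were 552, 543 and 504 in control and 532, 657 and 624 in dm-αKG (log2 fold change 0.16, SE 0.077, edgeR adjusted p = 0.132). Upstream, 2 peaks fell. The peak at 12.7 kb dropped from 68.9, 77.3 and 70.5 to 28.7, 29.5 and 22.5, with narrow spread in both groups (log2 fold change -1.40, SE 0.24, edgeR adjusted p = 4.28e-06). At 11.6 kb the counts were 100, 112 and 115 against 68.1, 73.1 and 41.9 (log2 fold change -0.80, SE 0.18, edgeR adjusted p = 0.000714). The call at 12.7 kb held under every alternative run, with log2 fold changes from -1.62 to -1.31. Higher counts were found at the promoter of STAT5A (0.62, edgeR adjusted p = 0.000674), a STAT gene next to STAT3, and at that of CAVIN1 (0.67, edgeR adjusted p = 0.00145), which encodes a caveolar coat protein. The strongest distal peak, 43.5 kb upstream, had 496, 505 and 473 against 479, 544 and 537 (log2 fold change 0.070, SE 0.079, edgeR adjusted p = 0.585).

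**Figure D4:**
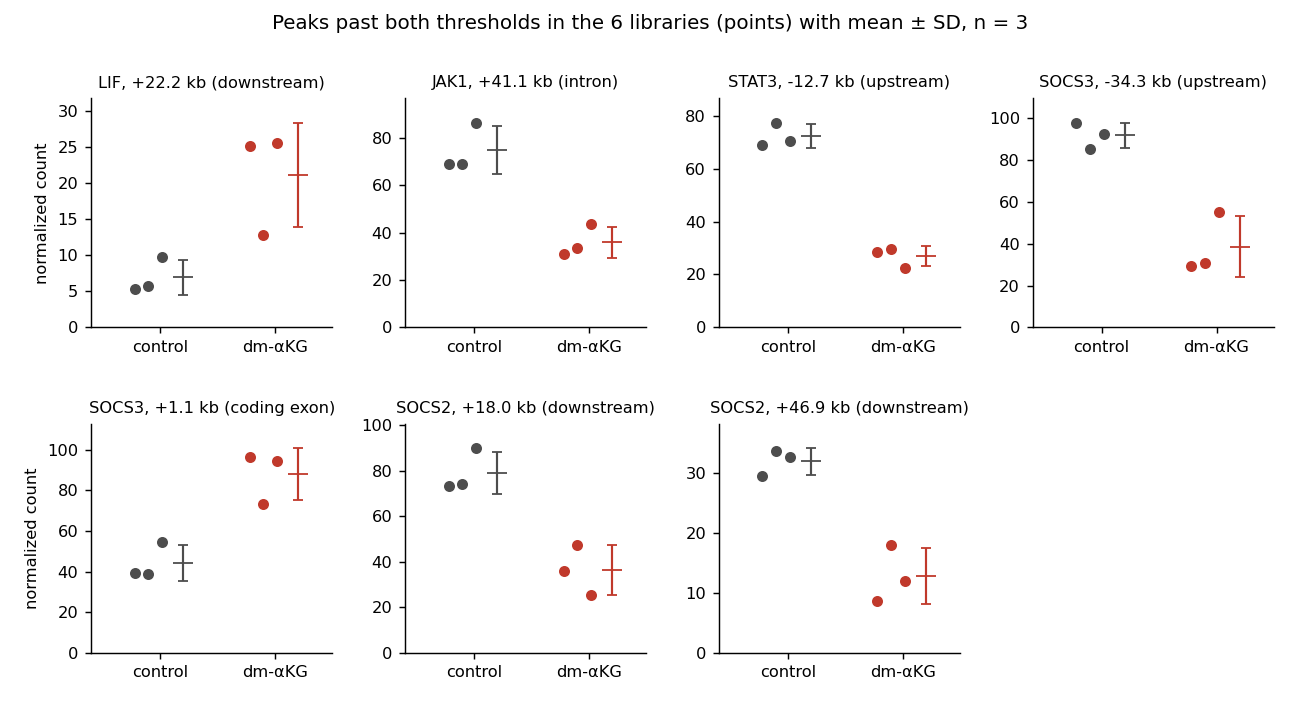
Normalized counts of the 7 peaks past both thresholds in the 3 control (grey) and 3 dm-αKG (red) libraries, with mean and SD. In each panel all libraries of a treatment lie on the same side of all those of the other, and the LIF peak has the lowest counts.

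SOCS3, which blocks JAK activity at gp130, had the most peaks past the adjusted p. Of its 32 peaks, 5 were lower and 3 higher (15.6% and 9.38%, against 6.54% and 3.34% of all peaks). Its promoter peak (chr17:78360826-78361031) was not among them, with 299, 328 and 300 in control and 312, 330 and 323 in dm-αKG (log2 fold change 0.051, SE 0.094, edgeR adjusted p = 0.759). Upstream, the peak at 5.7 kb fell from 368, 366 and 330 to 220, 273 and 219 (log2 fold change -0.59, SE 0.10, edgeR adjusted p = 3.72e-06). Its neighbour at 6.3 kb, which holds the core word TTCNNNGAA, fell by 0.81 and the peak at 14.8 kb by 0.64 on the log2 scale, with edgeR adjusted p of 0.000743 and 6.35e-05. Farther upstream, inside PGS1, a gene of phospholipid synthesis, the peak at 34.3 kb went from 97.5, 85.5 and 92.3 to 29.4, 30.8 and 55.4 and was called less accessible (log2 fold change -1.32, SE 0.22, edgeR adjusted p = 2.20e-06), a call that held under every alternative run. In the same gene a peak at 21.9 kb was higher (0.43, edgeR adjusted p = 0.00539).

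Within the coding exon of SOCS3 the direction was the opposite. The peak 1.1 kb from the start held 39.4, 38.6 and 54.7 in control and 96.1, 73.1 and 94.3 in dm-αKG (log2 fold change 1.02, SE 0.21, edgeR adjusted p = 0.000121). Its fold was close to the threshold, and without control 1, control 2, dm-αKG 1 or dm-αKG 3 it came to 0.94 to 0.99 while the edgeR adjusted p stayed between 0.000421 and 0.00543. Downstream, a peak 18.0 kb from the start was higher (0.61, edgeR adjusted p = 0.000582) and a peak at 52.1 kb lower (-0.63, edgeR adjusted p = 0.000204). The strongest distal peak, at 8.2 kb, had 542, 575 and 592 against 554, 547 and 472 (log2 fold change -0.11, SE 0.077, edgeR adjusted p = 0.352).

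SOCS2, a SOCS protein best known for restraining growth hormone signalling, had 18 peaks. Of these, 4 were lower (22.2%, against 6.54% of all peaks) and 0 higher (against 3.34%). All 4 lay past the promoter on the downstream side. From the start outwards, the intronic peak at 12.6 kb fell from 136, 162 and 135 to 73.1, 84.7 and 114 (log2 fold change -0.72, SE 0.16, edgeR adjusted p = 0.000463). The peak at 14.4 kb, the strongest distal one, fell from 221, 235 and 215 to 136, 141 and 159 (log2 fold change -0.64, SE 0.12, edgeR adjusted p = 5.14e-05). The remaining 2 were called less accessible.

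At 18.0 kb the SOCS2 counts were 73.3, 74.0 and 89.9 in control and 35.9, 47.5 and 25.5 in dm-αKG (log2 fold change -1.10, SE 0.22, edgeR adjusted p = 0.000120), and the log2 fold change was -0.95 without dm-αKG 3. At 46.9 kb they were 29.5, 33.7 and 32.8 against 8.61, 18.0 and 12.0 (log2 fold change -1.38, SE 0.36, edgeR adjusted p = 0.00355). That low-count peak lost its call with DESeq2 (adjusted p = 0.0207), with thinned libraries, and without control 1, control 2, control 3 or dm-αKG 1, over adjusted p of 0.0112 to 0.0703. The promoter peak (chr12:93570216-93570419), by contrast, had 395, 337 and 345 in control and 347, 337 and 341 in dm-αKG (log2 fold change -0.070, SE 0.091, edgeR adjusted p = 0.642).

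PIM1, a serine/threonine kinase gene induced by STAT3, had the highest promoter count before correction for width (chr6:37169652-37170061), with 654, 798 and 615 in control and 704, 772 and 686 in dm-αKG (log2 fold change 0.057, SE 0.074, edgeR adjusted p = 0.649). A smaller peak 0.2 kb inside the gene (chr6:37170271-37170470) rose from 50.1, 76.5 and 42.5 to 111, 116 and 88.3 (log2 fold change 0.88, SE 0.19, edgeR adjusted p = 0.000313). This smaller peak is the nearer of the pair to a transcript start, so the promoter of PIM1 passed the test when the nearest peak was taken. Upstream at 41.7 kb a peak was lower (-0.61, SE 0.18, edgeR adjusted p = 0.00925). The strongest distal peak, 52.6 kb from the start and downstream, held 883, 843 and 877 against 838, 865 and 856 (log2 fold change -0.025, SE 0.066, edgeR adjusted p = 0.834).

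BCL3, an atypical IκB protein that binds NF-κB subunits, had 28 peaks, of which 22 (78.6%) had a log2 fold change above 0, against 51.2% of all peaks and 66.1% of all peaks at promoters. Its promoter peak (chr19:44758208-44758407), near an internal start 10.6 kb into the gene, had 175, 142 and 115 in control and 214, 177 and 196 in dm-αKG. The groups stood apart by a small margin, and the log2 fold change was 0.44 (SE 0.13, edgeR adjusted p = 0.0121). Without control 1 it was 0.61 (edgeR adjusted p = 0.00352), and with thinned libraries 0.37 (edgeR adjusted p = 0.0768). With DESeq2 it was 0.44 (adjusted p = 0.0624). Over all alternatives it ran from 0.23 to 0.61. The peak at the start of the gene record, 0.1 kb upstream, had overlapping groups and a log2 fold change of 0.14 (SE 0.14, edgeR adjusted p = 0.529). Of the 11 peaks at its promoters, that at 9.5 kb (chr19:44757077-44757276) rose from 47.4, 35.4 and 47.4 to 74.6, 74.4 and 76.3 (log2 fold change 0.80, SE 0.22, edgeR adjusted p = 0.00424). The peak with the smallest adjusted p lay 60.5 kb from the start at the promoter of BCAM, a cell adhesion gene, with 181, 178 and 234 against 306, 277 and 269 (log2 fold change 0.55, SE 0.11, edgeR adjusted p = 0.000101). The strongest peak away from promoters, at 23.0 kb, had a log2 fold change of 0.27 (SE 0.10, edgeR adjusted p = 0.0492).

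Summing all counts over each gene with 50 kb on either side gave a value per library that no choice of peak enters. Over 19596 protein-coding genes, 12.0% of sums were lower and 10.7% higher at an edgeR adjusted p below 0.01. Among the 9 genes BCL3 and LIF were higher and SOCS2 was lower. BCL3 went from 3480, 3423 and 3509 normalized counts to 4027, 3905 and 3840, which is 1.13-fold (log2 0.18, SE 0.031, edgeR adjusted p = 0.000119). LIF went from 2702, 2624 and 2722 to 2997, 2931 and 2859, which is 1.09-fold (log2 0.13, SE 0.035, edgeR adjusted p = 0.00480). Without control 1, 2 or 3 or dm-αKG 1 or 2 the LIF sum did not pass (edgeR adjusted p 0.0108 to 0.0347). SOCS2 went from 2223, 2241 and 2220 to 1950, 1916 and 1993, which is 0.876-fold (log2 -0.19, SE 0.038, edgeR adjusted p = 0.000417), and it passed under every alternative run.

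The other 6 sums did not pass. The log2 fold change was 0.11 at LIFR (edgeR adjusted p = 0.0969), -0.081 at SOCS3 (0.0573), -0.071 at IL6ST (0.153), -0.047 at PIM1 (0.290), 0.045 at JAK1 (0.232) and 0.004 at STAT3 (0.935). The median over the 9 genes was 0.004, as it was over all genes.

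**Figure D5:**
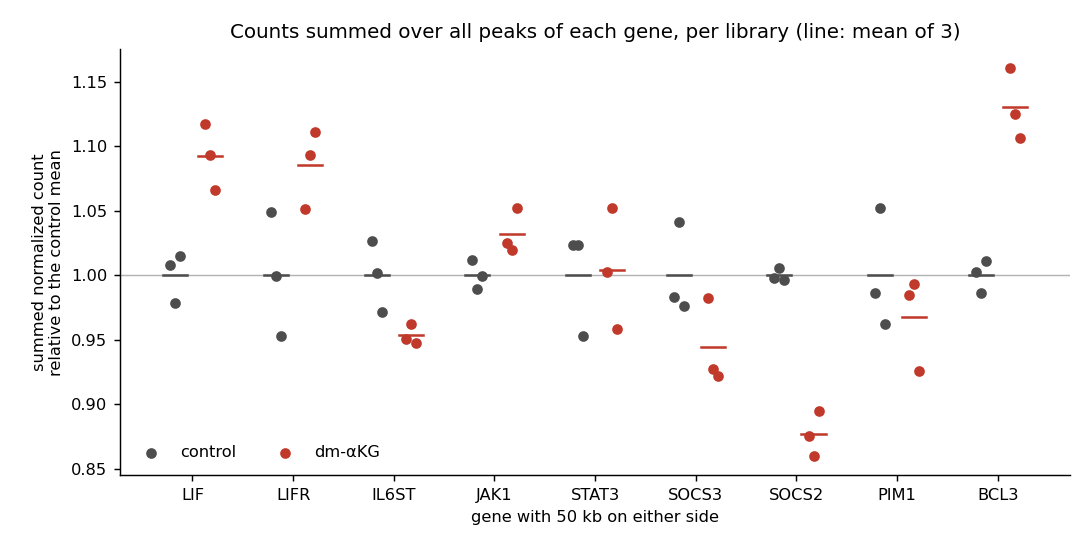
Summed normalized counts of each gene with 50 kb on either side, in each library, divided by the control mean of that gene; the vertical axis does not start at 0. The dm-αKG libraries (red) lie above all controls (grey) at LIF and BCL3 and below them at SOCS2, by 1.09-fold, 1.13-fold and 0.876-fold in the mean. They also lie above all controls at LIFR and JAK1 and below them at IL6ST, where the sums did not pass the adjusted p. The share of all genes whose sums stood apart is not given here, so this separation cannot be read as particular to these genes.

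Of 40 other pathway genes, 38 had a promoter peak, and the cytokine genes OSM and CNTF had none. At the adjusted p of 0.01, 1 promoter was lower and 2 were higher, against the 2.63% and 3.74% of all genes. None passed the fold threshold. GBX2, a STAT3 target in mouse embryonic stem cells, fell from 239, 280 and 237 to 175, 203 and 160 (log2 fold change -0.49, SE 0.12, edgeR adjusted p = 0.000930). It did not pass without control 2 or dm-αKG 1 (edgeR adjusted p 0.0307 and 0.013). STAT5A, whose promoter is the member peak beside STAT3, rose from 103, 113 and 122 to 162, 183 and 174 (log2 fold change 0.62, SE 0.14, edgeR adjusted p = 0.000674), and its edgeR adjusted p was 0.0114 without control 1. SOCS7, another SOCS gene, rose from 369, 373 and 329 to 480, 495 and 425 (log2 fold change 0.39, SE 0.085, edgeR adjusted p = 0.000436).

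By role, 0 of 4 cytokine, 0 of 4 receptor and 0 of 6 kinase or phosphatase promoters passed, and 1 of 6 STAT, 1 of 8 inhibitor and 1 of 10 target promoters did. The 35 that did not pass had log2 fold changes from -0.22 to 0.26, and 8 of the 38 had an unadjusted p below 0.05, against 26.2% of the promoter peaks of all genes. The median was 0.055, and 0.049 over the promoter peaks of all genes. Of the 40 sums with 50 kb on either side, 6 were lower and 5 higher, near the 12.0% and 10.7% of all genes. Among the lower ones were GBX2 (-0.30), KLF4 (-0.24), TFCP2L1 (-0.19), PIAS1 (-0.17) and KLF5 (-0.15), of which KLF4, KLF5, GBX2 and TFCP2L1 are pluripotency factors known as targets of LIF and STAT3. The higher ones were TYK2 (0.22) and PTPN11 (0.17), a kinase and a phosphatase of the receptor, the cytokines CLCF1 (0.21) and OSM (0.14), and JUNB (0.12), a STAT3 target of the AP-1 family. The OSM window shares peaks with that of LIF. The sums of the other targets listed, MCL1, FOSL2, CEBPB, BCL6 and VEGFA, did not pass (log2 fold change -0.099 to 0.053). At their promoter peaks, KLF4 (-0.005), TFCP2L1 (-0.073) and KLF5 (-0.094) did not pass either.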

How the data were processed

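The authors ran the ENCODE ATAC-seq pipeline once per treatment, which trimmed the reads, mapped them to hg38 by Bowtie 2, called MACS2 peaks in every replicate and kept reproducible ones. The deposited peak lists hold a score, a fold enrichment (a ratio of signal to background) and a q-value as −log10 for each peak. Only their positions were used here, to say in which list a peak stood. The authors cut peaks to 200 bp around the summit, merged both lists and deposited raw counts of reads per merged peak and library, without normalization (median width 204 bp). bedtools 2.28.0 is named in the submitters' processing notes.

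Counts of all 171517 peaks were fitted in R 4.3.3 with edgeR 4.0.16 (TMM scaling, quasi-likelihood test, treatment as the only term, all peaks kept), with p-values adjusted by Benjamini-Hochberg over the table. The SE of a log2 fold change was its size over the root of its F statistic. DESeq2 (1.42.0 here; the study used another version), other scalings (RLE, total counts, upper quartile), a minimum of 10 counts per library, thinning to 13025674 counts, a replicate block, leaving out each library, other windows and other choices of promoter peak were alternatives. An exact permutation test on 3 and 3 libraries has a smallest two-sided p of 0.10. The published methods give the replicates as biological. Same-numbered libraries did not deviate together (r from -0.0158 to 0.0127), so the numbers were not taken as pairs. Neighbouring peaks and overlapping windows are not independent. Counts come from reads without molecular identifiers.

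Positions are 1-based. Genes and transcript starts were from GENCODE 44, with the starts of protein-coding genes only. Sequences were from hg38 and RefSeq promoters (GRCh38.p14). Words allowed no mismatch. The rule for naming took the promoter peak of each gene, its peak with the smallest adjusted p, its strongest peak away from transcript starts, every peak past both thresholds and every peak with TTCCNGGAA, and other pathway genes whose promoter passed the adjusted p. Further peaks past the adjusted p, or beside such a peak, were named after their values were seen. The members and lists were chosen with earlier results of these data known. The main edgeR fit and DESeq2 on peaks, and the edgeR fit of sums, were also run on simulated counts. The other alternatives were not. For the peaks, 200 of 171517 were changed. The changed peaks were drawn only from those above a minimum mean count, so the recovery does not cover low-count peaks. For them, edgeR recovered 76 of 100 changes of 2-fold and 99 of 100 of 4-fold with 2 false calls. DESeq2 recovered 62 and 92 with 0 false calls. On sums of 19596 genes edgeR recovered 99 of 100 at 2-fold with 3 false calls. Some sequences and 1 gene value are not reported here.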

Additional observations from a re-analysis of the deposited data

How the results depend on the processing

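Each peak value rests on 3 libraries per treatment and on 13025674 to 26828622 counts per library, and at the depth of the smallest library the LIF peak at 22.2 kb and the SOCS2 peak at 46.9 kb did not pass. The peaks at 12.7 kb from STAT3 and 34.3 kb from SOCS3 passed both thresholds under all 13 alternatives that gave them a value. The BCL3 sum failed over the gene body alone (edgeR adjusted p = 0.0141), and the SOCS2 sum passed in all 15 alternatives. Changes under 2-fold were counted only by the adjusted p. The causes of the differences below were not tested.

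With DESeq2, 1 member peak was more accessible at both thresholds and 6 were higher by the adjusted p alone. More accessible peaks also numbered 1 with at least 10 counts in every library and 1 with thinned libraries. Over the gene bodies alone, with 92 peaks, there were 1 less and 1 more accessible peak, and 2 lower and 3 higher by the adjusted p. With 20 kb on either side, 3 of 165 peaks were less accessible and 6 higher by the adjusted p. With 100 kb, 23 of 348 were lower. A threshold of 0.05 gave 22 lower and 25 higher among the 239 peaks. The shares of all peaks under these alternatives are not given here, so the counts describe the members only. Promoter peaks past the adjusted p numbered 1 with total counts, 1 with upper quartile scaling, 1 with the peak nearest to a transcript start and 2 with all promoter peaks summed. Leaving out each library in turn gave 3 to 5 less accessible peaks, 0 to 2 more accessible, 9 to 14 lower and 5 to 12 higher by the adjusted p, 3 to 7 of the 7 called peaks, 0 to 1 of the 9 promoter peaks, and 1 to 2 genes with a higher sum.

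Some values near 0 changed sign, none of them past the threshold except SOCS3 over its gene body, where the only peak is the exon peak already described. With libraries left out in turn, the promoter log2 fold change ranged from -0.076 to 0.075 at IL6ST, from -0.114 to 0.012 at SOCS2 and from -0.014 to 0.186 at PIM1, and the STAT3 sum from -0.029 to 0.032. The promoter of IL6ST was at -0.001 with at least 10 counts and -0.04 with thinned libraries, and that of SOCS3 at -0.067 for the nearest peak and -0.144 for all promoter peaks summed. The STAT3 sum came to -0.006 with upper quartile scaling, -0.086 over the gene body, -0.09 with 20 kb, -0.073 without promoter peaks and -0.028 without dm-αKG 2. Over the gene body the sum was 0.017 at IL6ST, 0.985 at SOCS3 (edgeR adjusted p = 0.000222) and 0.124 at PIM1, and with 100 kb it was -0.036 at JAK1. With the replicate block the members had 5 less and 2 more accessible peaks, 12 lower and 11 higher, and each of the 7 called peaks, 9 promoter peaks and 9 sums stayed on its side of the threshold. The LIF peak at 22.2 kb had no adjusted p with DESeq2 and was left out by the minimum of 10 counts.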
